A study of Homo sapiens with 16 samples.

Results

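Semaphorins are secreted or membrane-bound signalling proteins, plexins are the receptors that most of them bind, and neuropilins are co-receptors that most secreted class 3 semaphorins need in order to signal through class A plexins. The genes described here were all symbols of the count table that belong to semaphorin classes 3 to 7, to plexins A to D or to the neuropilins. That rule gave 31 genes of the 25728 in the table: 20 semaphorins, 9 plexins and 2 neuropilins. A filter on low counts left 29 of them for testing, because SEMA3B and SEMA4A did not pass it.

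RNA was sequenced from Kelly and LAN-1, established human neuroblastoma cell lines with amplified MYCN, the oncogene that marks an aggressive form of this childhood tumour of the sympathetic nervous system. Each line was kept for 2 or 5 days with 2 uM GSK126, which inhibits EZH2, the enzyme that places the repressive mark H3K27me3 on histones, or with DMSO, its solvent. The 8 groups were Kelly and LAN-1 with GSK126 and with DMSO at day 2 and at day 5, with 2 libraries in each and 16 in all. Each line stands for 1 tumour, and the labels give no other allele or agent. Nothing in the labels says that duplicates were grown as separate cultures, so the spread behind the tests may be technical.

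Semaphorin binding changes the small GTPases and kinases downstream of plexins, and through them the cytoskeleton and cell adhesion. In the developing nervous system these signals guide axons, and in the sympathetic lineage that neuroblastoma comes from they steer migrating neural crest cells and growing sympathetic axons. Class 3 semaphorins are secreted, classes 4 to 6 span the membrane, and class 7 is anchored by a lipid. PLXNA4 and PLXNA2 are class A plexins, which bind class 6 semaphorins such as SEMA6A directly and class 3 semaphorins together with NRP1 or NRP2.

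Totals per library were shallow, between 912095 and 1666190 counts with a median of 1394475.5, and the 31 genes together took 0.0947% to 0.216% of them. Levels below are CPM, the count per 1e6 counts of a library total scaled for composition. A count of 0 in a library allows a level of up to 1.82 to 3.31 CPM, depending on its total, if up to 3 counts are taken as possible. Effects are log2 fold changes ± SE from 1 edgeR quasi-likelihood model of all 8 groups, with 2 libraries per group. A gene is called where its Benjamini-Hochberg adjusted p, taken over all 11863 tested genes, was under 0.05. With 2 libraries per group, groups often lie apart with no difference between them. Groups said below to be apart or without overlap are therefore descriptions of libraries, and no share over all genes was taken for them. In bulk RNA of this kind, fewer cells that carry a transcript and less of it per cell cannot be told apart. DBH, the enzyme that makes noradrenaline, averaged between 332 and 824 CPM in Kelly groups but between 1.19 and 4.38 CPM in LAN-1 groups.

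The receptors PLXNA4, whose course in DMSO was known when the family was chosen, and PLXNA2 are described first. Both were higher with GSK126 than with DMSO at day 5 in Kelly and in LAN-1. In DMSO both were lower at day 5 than at day 2 in each line. The promoter windows of these genes and of PLXNA1, the related class A receptor, are shown because EZH2 target genes in mammals often start in stretches rich in the dinucleotide CG. Sequences are RefSeq windows of build GRCh38.p14, from 250 bases before to 50 after the gene start, read 5′ to 3′ on the gene's strand, with each CG in capitals.
PLXNA4, chr7:132576421-132576720, minus strand: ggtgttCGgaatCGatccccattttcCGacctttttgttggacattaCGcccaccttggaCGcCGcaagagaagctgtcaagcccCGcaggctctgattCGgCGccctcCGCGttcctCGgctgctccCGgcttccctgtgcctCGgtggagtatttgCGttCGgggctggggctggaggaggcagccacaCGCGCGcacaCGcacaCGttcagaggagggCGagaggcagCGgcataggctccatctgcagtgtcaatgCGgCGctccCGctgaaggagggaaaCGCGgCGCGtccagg
PLXNA2, chr1:208244335-208244634, minus strand: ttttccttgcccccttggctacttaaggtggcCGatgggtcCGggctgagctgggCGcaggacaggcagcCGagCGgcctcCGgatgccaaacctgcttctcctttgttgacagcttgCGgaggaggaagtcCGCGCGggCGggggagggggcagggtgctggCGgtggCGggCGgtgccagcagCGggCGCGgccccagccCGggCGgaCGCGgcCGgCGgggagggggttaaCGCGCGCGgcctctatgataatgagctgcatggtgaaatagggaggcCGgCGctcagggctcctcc
PLXNA1, chr3:126982865-126983164, plus strand: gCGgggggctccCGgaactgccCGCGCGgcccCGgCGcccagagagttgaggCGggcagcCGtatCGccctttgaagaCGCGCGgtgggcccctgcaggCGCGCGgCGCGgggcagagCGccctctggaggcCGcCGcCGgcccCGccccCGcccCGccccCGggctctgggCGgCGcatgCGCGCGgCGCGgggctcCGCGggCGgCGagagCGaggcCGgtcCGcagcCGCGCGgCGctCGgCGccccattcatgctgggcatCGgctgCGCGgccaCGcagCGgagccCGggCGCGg

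PLXNA4 held 30 CG dinucleotides in its 300 bases, PLXNA2 held 29 and PLXNA1 held 54. Of all 35116 windows in the promoter table, whose median was 14, 77.6% held fewer than PLXNA4, 75.8% fewer than PLXNA2 and 99.5% fewer than PLXNA1. The letters CACGTG, an E-box that MYC family proteins can bind and which reads the same on both strands, were in none of these 3 windows. They were in 3 of the 48 windows of the 27 family symbols that the table lists, those of SEMA3E, SEMA4D and SEMA6D, and in 7.26% of all windows. These are descriptions of letters, and neither H3K27me3 nor MYCN binding was measured here.

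PLXNA4 lies on chromosome 7 at 131808099 to 132333447 of GRCh37, the build of all gene positions below, on the minus strand. In Kelly at day 5 it stood at 232 and 230 CPM with GSK126, against 44.8 and 60.8 CPM with DMSO. At day 2 its levels in Kelly were 152 and 135 CPM with GSK126 and 111 and 117 CPM with DMSO. The treated and control libraries did not overlap on either day, and the gap was far wider at day 5. The day 5 effect was 2.11 ± 0.15, and the day 2 effect was 0.33 ± 0.13. No p is given for either day. When the family was chosen, the DMSO libraries of PLXNA4 were known to be lower at day 5 than at day 2.

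LAN-1 carried less PLXNA4 and showed the same order at day 5. Its libraries read 44.1 and 63.9 CPM with GSK126 at day 5, against 7.66 and 12.6 CPM with DMSO. At day 2 they read 34.3 and 34.8 CPM with GSK126, between the 39.1 and 21.7 CPM of the DMSO libraries. Treated and control libraries were thus apart at day 5 and overlapped at day 2. The effect was 2.38 ± 0.29 at day 5 and 0.17 ± 0.23 at day 2, both given without a p for the same reason. The Kelly effect minus the LAN-1 effect at day 5 was -0.28 ± 0.35, with no p because the day 5 DMSO libraries of both lines enter it. No conclusion on a difference between the lines is drawn from it.

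**Figure D1:**
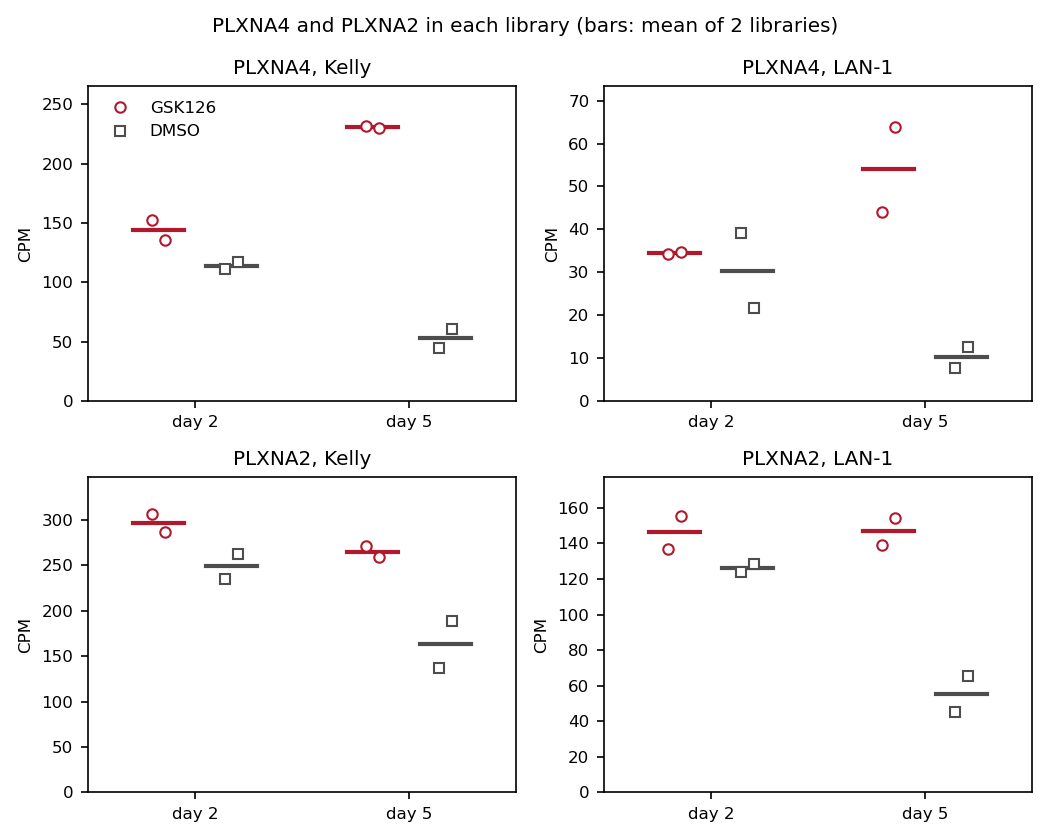
Level of PLXNA4 and PLXNA2 in each library, in CPM on a linear axis, with 1 point per library and a bar at each group's mean, and GSK126 left of DMSO within each day and line. At day 5 every GSK126 library lies above every DMSO library of its line for both genes, with Kelly PLXNA4 at 232 and 230 CPM against 44.8 and 60.8 CPM.

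PLXNA2 lies on chromosome 1 at 208195587 to 208417729, on the minus strand, and encodes a receptor for SEMA6A as well as for class 3 semaphorins. Kelly libraries held 271 and 259 CPM with GSK126 at day 5 and 138 and 189 CPM with DMSO. At day 2 Kelly had 307 and 287 CPM with GSK126 and 235 and 262 CPM with DMSO. With GSK126 the gene thus stayed near its day 2 control level at day 5, and the day 5 DMSO libraries were the low ones. LAN-1 followed the same order, with 139 and 154 CPM with GSK126 at day 5 against 45.3 and 65.6 CPM with DMSO. Its day 2 libraries read 137 and 156 CPM with GSK126 and 124 and 128 CPM with DMSO. Treated libraries lay above their controls in each line on each day, but only day 5 passed the test. By edgeR the day 5 effect was 0.68 ± 0.11 in Kelly, with an adjusted p of 4.121e-06, and 1.41 ± 0.16 in LAN-1, with an adjusted p of 1.786e-11. The day 2 effects were 0.25 ± 0.11 in Kelly and 0.21 ± 0.13 in LAN-1, with adjusted p values of 0.538 and 0.828.

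The course of PLXNA4 in DMSO was known when the family was chosen, so it is given as a description with no test. Kelly DMSO libraries held 44.8 and 60.8 CPM at day 5, against 111 and 117 CPM at day 2, a log2 difference of -1.10 ± 0.16. LAN-1 DMSO libraries held 7.66 and 12.6 CPM at day 5, against 39.1 and 21.7 CPM at day 2, a log2 difference of -1.62 ± 0.31. The day 5 libraries were the lower ones in both lines, without overlap. The LAN-1 difference was -1.13 without the library LAN-1 DMSO day 2 replicate 1, the higher of its pair.

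PLXNA2 followed the same course in DMSO. In Kelly it held 138 and 189 CPM at day 5 and 235 and 262 CPM at day 2, with an effect of -0.60 ± 0.11 and an adjusted p of 7.446e-04 by edgeR. In LAN-1 it held 45.3 and 65.6 CPM at day 5 and 124 and 128 CPM at day 2, with an effect of -1.21 ± 0.16 and an adjusted p of 1.051e-08. It fell in both lines, and the LAN-1 call held whichever library was left out. The Kelly call was lost without Kelly DMSO day 5 replicate 1, where the adjusted p was 0.487, or without Kelly DMSO day 2 replicate 2. Apart from PLXNA4, PLXNA2 was the gene of the family called over time in DMSO in each line. Of all tested genes, 0.438% were called in Kelly and 0.438% in LAN-1, and 0.202% and 0.32% were called lower at day 5. The DMSO day 5 libraries enter both this difference and the GSK126 effect at day 5, so the 2 results are not independent of each other.

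The change in the GSK126 effect between days was tested as the effect at day 5 minus the effect at day 2. For PLXNA4 it was 1.78 ± 0.20 in Kelly and 2.21 ± 0.38 in LAN-1, given with no test because each value holds the known difference over time in DMSO, of -1.10 in Kelly and -1.62 in LAN-1. PLXNA2 in LAN-1 changed by 1.20 ± 0.21, with an adjusted p of 9.04e-05 by edgeR. For PLXNA2 in Kelly the same difference was 0.44 ± 0.16 with an adjusted p of 0.340. The LAN-1 call of PLXNA2 was lost without LAN-1 DMSO day 5 replicate 1, with an adjusted p of 0.0525. Of all genes, 0.379% were called for this difference in Kelly and 0.202% higher, and 0.539% in LAN-1 and 0.43% higher. The 2 days of a line were compared as separate libraries, and DMSO at day 5 again enters each value.

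Counted over the family, 3 of 29 genes in Kelly and 6 of 29 in LAN-1 were called higher with GSK126 at day 5. None was called lower. PLXNA4 is in both counts, with DMSO libraries of day 5 that were known to be low when the family was chosen. It is also among the 29 genes at day 2, where its DMSO libraries were known to be the higher ones. Of all tested genes, 4.9% were called in Kelly and 3.66% in LAN-1 in either direction, and 3.3% and 2.45% were called higher. These shares rest on 581 genes in Kelly and 434 in LAN-1, counts that move with single libraries. Without Kelly DMSO day 5 replicate 2 the Kelly count was 239, and without LAN-1 DMSO day 5 replicate 1 the LAN-1 count was 139. Without LAN-1 GSK126 day 5 replicate 1 they were 709 in Kelly and 735 in LAN-1. At day 2 edgeR called 0 of 29 in Kelly, where 0.177% of all genes were called, and 0 of 29 in LAN-1, where 0.152% were. With no adjustment, 6 of the 29 genes in Kelly and 1 in LAN-1 had p under 0.05 at day 2, as did 7.48% of all genes in Kelly and 6.23% in LAN-1, and DESeq2 called 0 in each line. At day 2 the family's median effect was 0.19 over 28 genes in Kelly, 25 of them above 0, and 0.17 over 27 genes in LAN-1, 18 of them above 0. At day 5 it was 0.18 over 29 genes in Kelly, 19 of them above 0, and 0.31 over 27 genes in LAN-1, 23 of them above 0, so in Kelly the median was no lower at day 2 than at day 5. Genes at 3 counts or fewer in both groups are left out of these medians, and the median of all genes was between 0.00 and 0.01 in each. Effects averaged over both lines and days were called for 6 of 29 genes, all higher, against 6.47% of all genes in either direction and 4.32% higher. SEMA5B, among these 6, passed the low-count filter mainly through LAN-1 GSK126 libraries. PLXNA4 is also among the 6, and its DMSO libraries, whose course was known when the family was chosen, enter the average.

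**Figure D2:**
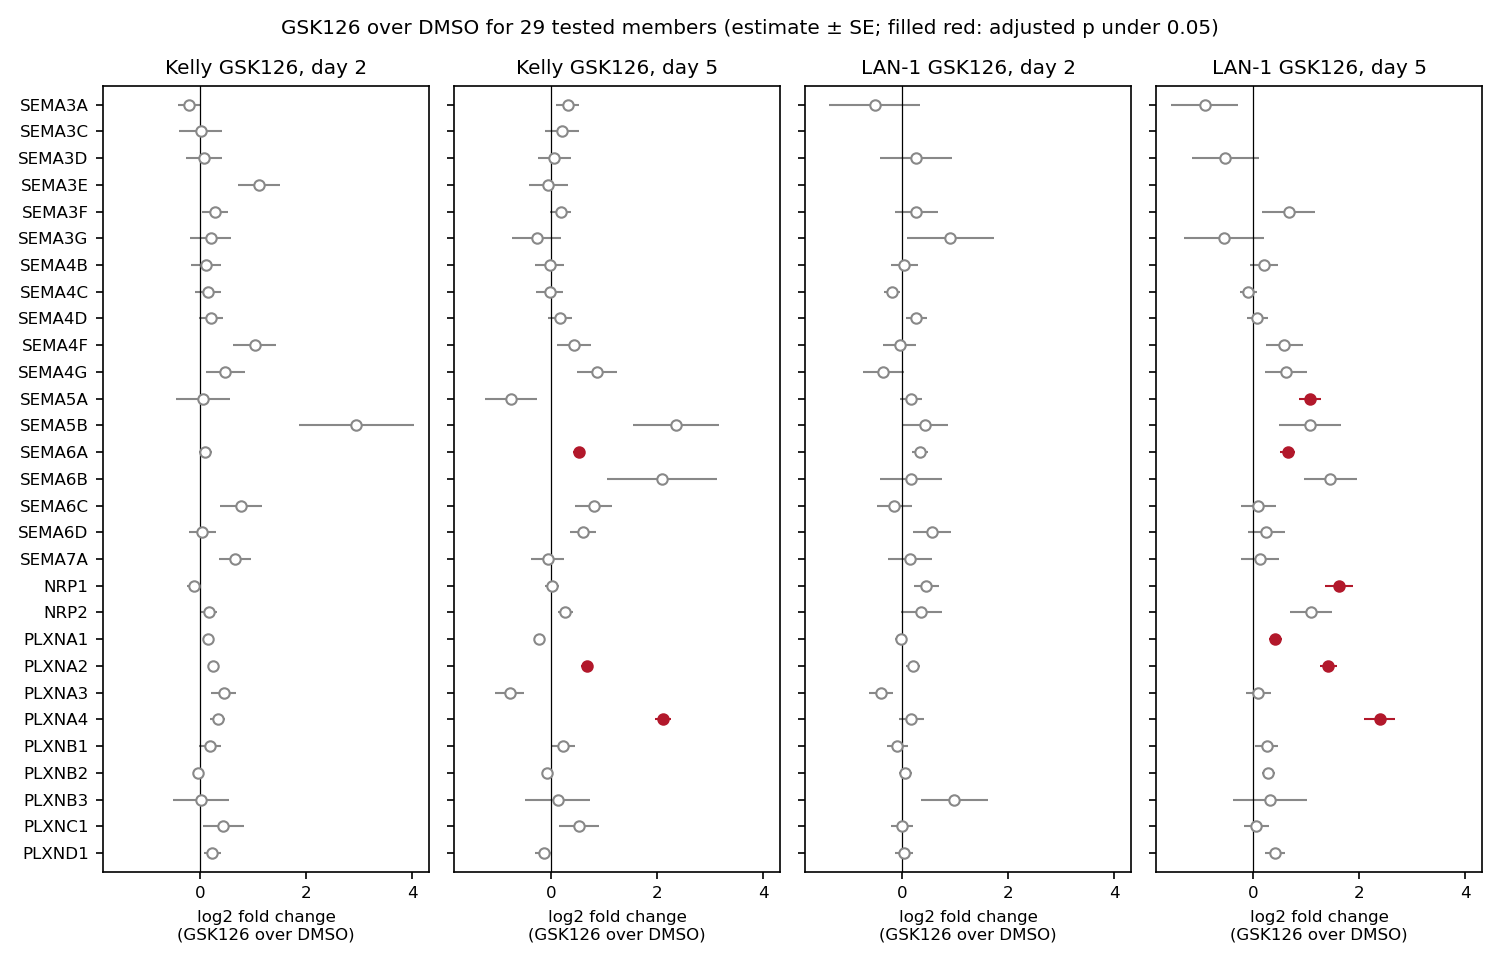
Log2 fold change of GSK126 over DMSO, with SE, for the 29 tested genes in each line and day, with called effects filled and genes at 3 counts or fewer in both groups left out. PLXNA4 stands far to the right at day 5, at 2.11 in Kelly and 2.38 in LAN-1, and no filled point lies left of 0.

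The transmembrane ligand SEMA6A, which binds PLXNA2 and PLXNA4, rose in both lines at day 5. It lies on chromosome 5 at 115779251 to 115910519, on the minus strand. Kelly libraries held 218 and 222 CPM with GSK126 and 138 and 165 CPM with DMSO at day 5, without overlap. At day 2 they held 157 and 156 CPM with GSK126 and 141 and 150 CPM with DMSO. LAN-1 held 153 and 127 CPM with GSK126 and 96.8 and 83.2 CPM with DMSO at day 5, again without overlap. Its day 2 libraries held 79.2 and 101 CPM with GSK126 and 67.9 and 75.4 CPM with DMSO. With DMSO in Kelly, the SEMA6A libraries of day 5 overlapped those of day 2, unlike those of PLXNA4 and PLXNA2. By edgeR the day 5 effects were 0.53 ± 0.12 in Kelly and 0.65 ± 0.14 in LAN-1, with adjusted p values of 0.00112 and 0.00153. Averaged over lines and days the effect was 0.40 ± 0.07 with an adjusted p of 4.194e-06. The Kelly call was lost without Kelly DMSO day 5 replicate 1, with an adjusted p of 0.107, and under DESeq2, with 0.0580. The LAN-1 call was lost without LAN-1 DMSO day 5 replicate 2 or without LAN-1 GSK126 day 5 replicate 1, with an adjusted p of up to 0.0984.

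NRP1, the co-receptor for SEMA3A that also binds VEGF, changed in LAN-1 and not detectably in Kelly. The gene lies on chromosome 10 at 33466420 to 33625190, on the minus strand. LAN-1 libraries held 38.5 and 54 CPM with GSK126 and 16 and 12.6 CPM with DMSO at day 5. At day 2 they held 31.8 and 31.7 CPM with GSK126 and 21.8 and 24.5 CPM with DMSO, so treated LAN-1 libraries lay above their controls on both days. The LAN-1 DMSO libraries were themselves lower at day 5 than at day 2, without overlap, a difference that was not called. Kelly held 135 and 129 CPM with GSK126 and 121 and 140 CPM with DMSO at day 5. Day 2 gave 116 and 116 CPM with GSK126 and 133 and 121 CPM with DMSO in Kelly. The Kelly groups overlapped at day 5, and at day 2 the GSK126 libraries were slightly the lower ones. By edgeR the LAN-1 effect was 1.62 ± 0.26 at day 5, with an adjusted p of 5.894e-06, and 0.46 ± 0.24 at day 2, with an adjusted p of 0.808. In Kelly at day 5 it was 0.01 ± 0.13 with an adjusted p of 0.987. The Kelly effect minus the LAN-1 effect at day 5 was -1.61 ± 0.30, with an adjusted p of 1.262e-04, and this call held under DESeq2 and whichever library was left out.

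SEMA5A, a membrane semaphorin known as a ligand of PLXNB3, likewise rose in LAN-1. It lies on chromosome 5 at 9035145 to 9546187, on the minus strand. At day 5 LAN-1 libraries held 64.4 and 60.6 CPM with GSK126 and 26.5 and 33.6 CPM with DMSO. At day 2 they held 46.5 and 42.5 CPM with GSK126 and 39.1 and 40.1 CPM with DMSO. The treated libraries were the higher ones on both days. As for NRP1, the LAN-1 DMSO libraries were lower at day 5 than at day 2, without overlap and without a call. Kelly levels were low, at 4.10 and 5.35 CPM with GSK126 and 6.73 and 9.12 CPM with DMSO at day 5. At day 2 Kelly held 5.51 and 5.11 CPM with GSK126 and 6.29 and 4.33 CPM with DMSO. The effect at day 5 by edgeR was 1.08 ± 0.21 in LAN-1, with an adjusted p of 2.684e-04, and -0.75 ± 0.49 in Kelly, with an adjusted p of 0.469. The LAN-1 call was lost without LAN-1 DMSO day 5 replicate 1, with an adjusted p of 0.0645. The 2 effects differed by -1.83 ± 0.53, Kelly minus LAN-1, with an adjusted p of 0.0442, a call lost without any of 6 libraries, with an adjusted p of up to 0.409.

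PLXNA1 had the highest level per length of the class A plexins in both lines, and its day 5 effects had opposite signs in them. It lies on chromosome 3 at 126701536 to 126756232, on the plus strand. LAN-1 libraries at day 5 held 257 and 260 CPM with GSK126 and 183 and 204 CPM with DMSO, an effect of 0.42 ± 0.12 with an adjusted p of 0.0177 by edgeR. At day 2 they held 193 and 196 CPM with GSK126, within the 224 and 168 CPM of DMSO. Kelly libraries at day 5 held 335 and 326 CPM with GSK126 and 360 and 408 CPM with DMSO, an effect of -0.22 ± 0.10 with an adjusted p of 0.230. At day 2 Kelly held 444 and 426 CPM with GSK126 and 350 and 427 CPM with DMSO. In both lines the day 5 libraries did not overlap between treatments. The LAN-1 call was lost without LAN-1 DMSO day 5 replicate 1, where the adjusted p was 0.312. It was also lost without LAN-1 DMSO day 5 replicate 2, without LAN-1 GSK126 day 5 replicate 2, and under DESeq2 with 0.0581. The Kelly effect minus the LAN-1 effect was -0.64 ± 0.15 with an adjusted p of 0.00587, which was lost without Kelly DMSO day 5 replicate 2, and without LAN-1 DMSO day 5 replicate 1 with 0.119.

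The difference between the lines in the day 5 effect was called for 4 of 29 genes, NRP1, PLXNA1, PLXNA2 and SEMA5A, all with the lower effect in Kelly, against 1.85% of all genes in either direction and 0.919% lower. For PLXNA2 it was -0.73 ± 0.20, with an adjusted p of 0.0267 by edgeR. That call was lost without any of 4 libraries, with an adjusted p of up to 0.472 without LAN-1 DMSO day 5 replicate 1, and under DESeq2 with 0.146. Only NRP1 of the 4 kept its call in every such fit. Leaving out Kelly DMSO day 5 replicate 2, or leaving out LAN-1 DMSO day 5 replicate 1, left 1 of the 4 called.

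NRP2, the co-receptor for SEMA3F, and SEMA5B, a membrane semaphorin of class 5, were called when the effect was averaged over lines and days. NRP2 held 119 and 108 CPM with GSK126 and 91.2 and 96.1 CPM with DMSO in Kelly at day 5, and 85.1 and 71.5 CPM against 66.5 and 72.3 CPM at day 2. In LAN-1 it held 12.6 and 22.0 CPM with GSK126 and 6.27 and 9.24 CPM with DMSO at day 5, and 14.7 and 10.1 CPM against 12.2 and 6.79 CPM at day 2. The groups were apart at day 5 and overlapped at day 2 in both lines. The averaged effect was 0.47 ± 0.15 with an adjusted p of 0.0332 by edgeR, lost without any of 6 libraries, with an adjusted p of up to 0.183, and under DESeq2 with 0.128.

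SEMA5B was scarce, and its values rest on few reads. Kelly held 11 counts over the GSK126 libraries and 1 over the DMSO libraries at day 2, a ratio of 9.38 between scaled totals with a 95% exact interval from 1.36 to 403.9. At day 5 Kelly held 14 counts with GSK126 and 3 with DMSO, a ratio of 5.50 with an interval from 1.54 to 29.9. LAN-1 held 19 counts with GSK126 and 10 with DMSO at day 5, and 28 and 25 at day 2. The LAN-1 ratios were 2.13 with an interval from 0.945 to 5.14 at day 5, and 1.35 with an interval from 0.759 to 2.41 at day 2. The scaled level was thus higher with GSK126 in all 4 pairs of groups, although the intervals, which cover counting error only, are wide. Averaged over lines and days the effect was 1.70 ± 0.38, a size that depends on the prior count of the model. No p is given, because it was mainly LAN-1 GSK126 libraries that brought SEMA5B past the low-count filter. It reached the filter level of 7.17 CPM in 5 libraries, all of LAN-1, and with DMSO only at day 2.

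**Figure D3:**
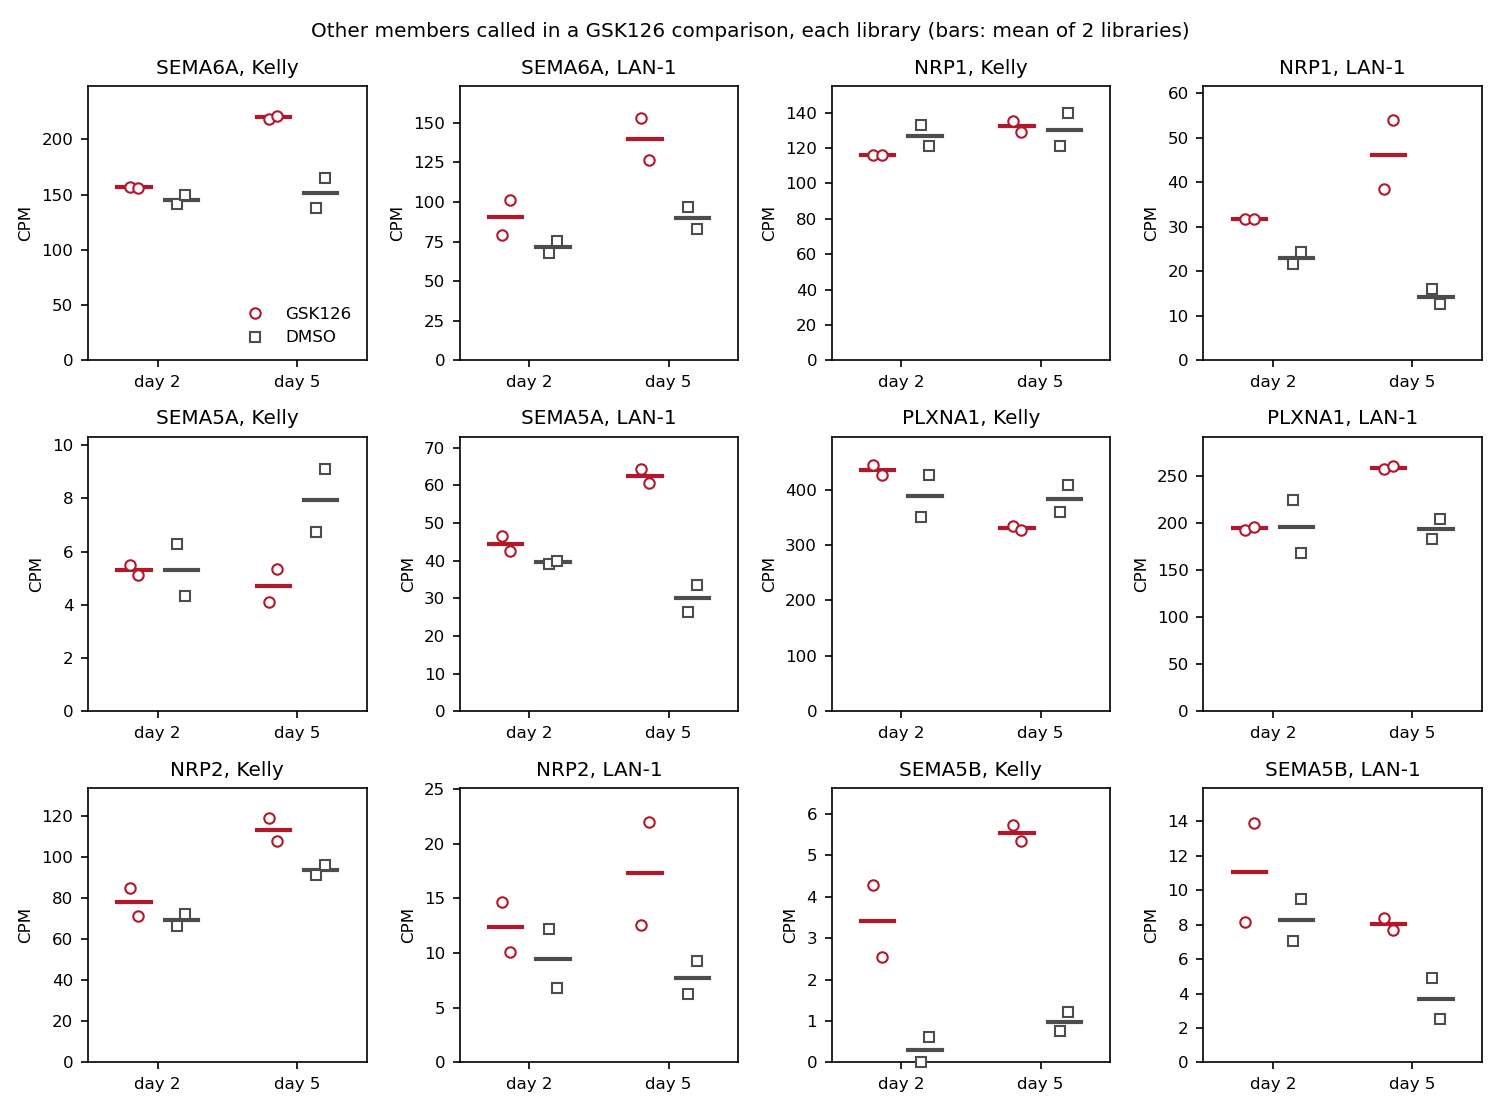
Level of SEMA6A, NRP1, NRP2, SEMA5A, SEMA5B and PLXNA1 in each library, in CPM on linear axes, with 1 point per library, a bar at each group's mean and GSK126 left of DMSO. NRP1 separates at day 5 in LAN-1, at 38.5 and 54 CPM against 16 and 12.6 CPM, and overlaps in Kelly.

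In cells with DMSO the plexins PLXNB2 and PLXNA1 were among the highest transcripts of the family per length in both lines. Levels per kilobase, which allow genes to be compared, were CPM divided by the summed length of the gene's exons, over 4 DMSO libraries of a line. In Kelly PLXNB2, a receptor for class 4 semaphorins, had 42.3 ± 3.17 and PLXNA1 41.3 ± 3.95 CPM per kb (SD, n = 4), and these 2 overlapped. Next in Kelly came PLXNA2 at 17.9 ± 4.76 and SEMA6A at 15.9 ± 1.31 CPM per kb, which overlapped each other. NRP1 had 11.2 ± 0.80 and PLXNA4 5.17 ± 2.23 CPM per kb in Kelly. LAN-1 was led by PLXNB2 at 22.6 ± 0.97, SEMA4C, a ligand of PLXNB2, at 21.5 ± 1.42 and PLXNA1 at 20.8 ± 2.63 CPM per kb, each overlapping the next. The summed level per length was 127.0 CPM per kb for the 9 plexins in Kelly and 76.1 in LAN-1, while the 2 neuropilins summed to 19.1 in Kelly and 2.46 in LAN-1. The 20 semaphorins differed little in sum, at 64.4 CPM per kb in Kelly and 62.1 in LAN-1.

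**Figure D4:**
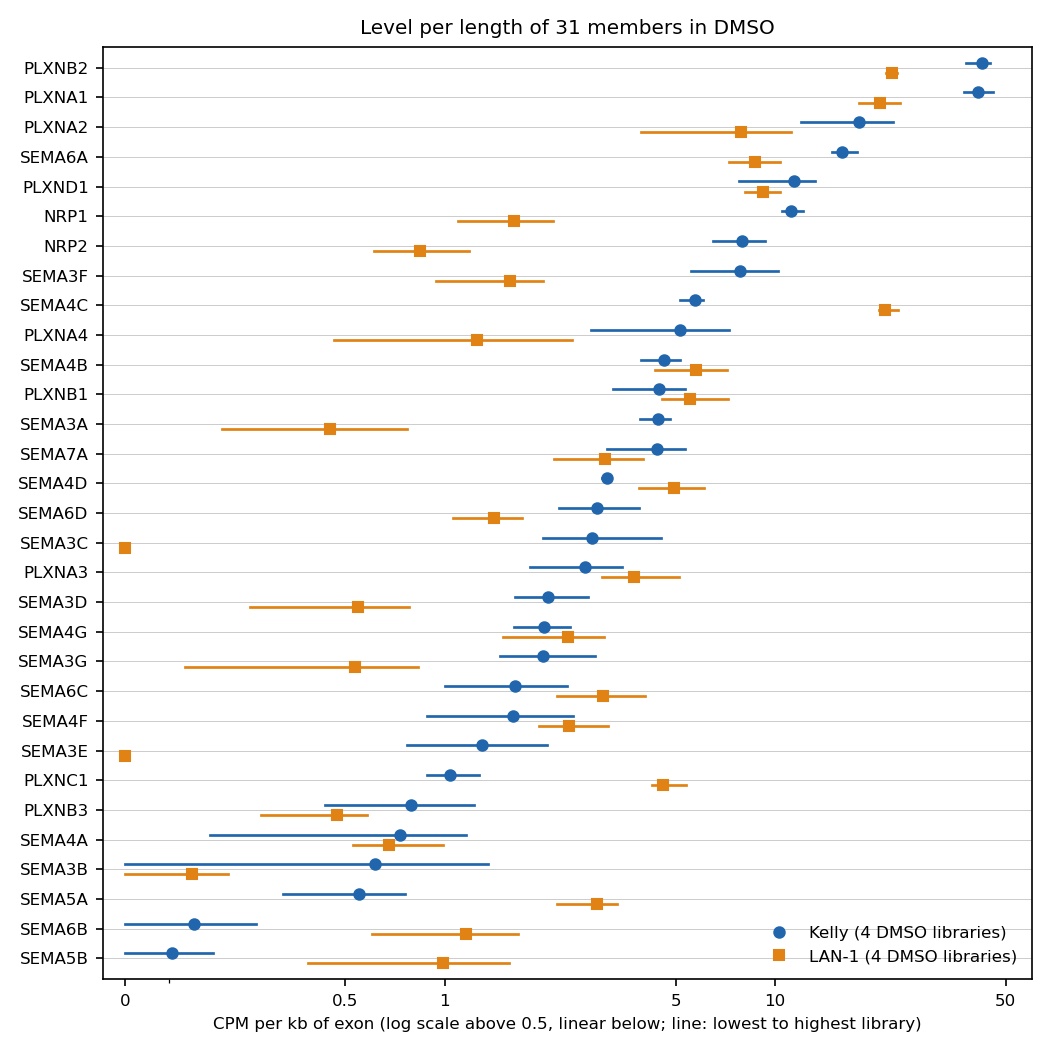
Level per kilobase of exon of the 31 genes in DMSO, in CPM per kb on an axis that is logarithmic above 0.5 and linear below, with Kelly above LAN-1 for each gene, points at the mean of 4 libraries and lines from the lowest to the highest. PLXNB2 leads in both lines, at 42.3 CPM per kb in Kelly and 22.6 in LAN-1, and the neuropilins and class 3 semaphorins sit higher in Kelly.

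The lines differed at 25 of 29 genes with DMSO, 16 higher and 9 lower in Kelly, against 67.7% of all tested genes, of which 34.2% were higher and 33.5% lower in Kelly. Most genes of the table thus differ between these lines, and the family's share is read against that. All tested secreted semaphorins were among the genes higher in Kelly. SEMA3C had 79 counts over the 4 Kelly DMSO libraries and 0 over the 4 LAN-1 DMSO libraries, at least 26.1-fold higher in Kelly if 3 counts in LAN-1 are allowed. SEMA3E had 59 counts in Kelly and 0 in LAN-1, at least 19.5-fold higher. SEMA3A, a repellent of sympathetic axons that signals through NRP1, held 34.0 to 41.9 CPM in Kelly and 1.92 to 6.72 CPM in LAN-1, a log2 difference of 3.37 ± 0.26. SEMA3F, a ligand of NRP2, differed by 2.29 ± 0.23, SEMA3D by 1.92 ± 0.32 and SEMA3G by 1.91 ± 0.41. None of the libraries of these 6 genes overlapped between the lines. SEMA3A, SEMA3C, SEMA3D, SEMA3E and SEMA3G reached the level of the low-count filter, 7.17 CPM, only in Kelly groups. They were thus tested because they are high in Kelly, and no p is given for them, although they are part of the 25 and the 16.

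Both neuropilins went the same way, by 3.23 ± 0.18 for NRP2 and 2.81 ± 0.14 for NRP1, with adjusted p values of 4.991e-34 and 1.946e-39 by edgeR. Among the plexins PLXNA4 was higher in Kelly by 2.16 ± 0.16, PLXNA2 by 1.29 ± 0.10, PLXNA1 by 0.99 ± 0.07, PLXNB2 by 0.91 ± 0.08 and PLXND1, the receptor of SEMA3E, by 0.33 ± 0.12. SEMA6D, SEMA6A and SEMA7A completed the 16, at 1.01 ± 0.22, 0.89 ± 0.10 and 0.53 ± 0.25. Co-receptors, class A plexins other than PLXNA3 and secreted ligands were thus higher in the same line.

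Of the 9 genes lower in Kelly, 7 were membrane-bound semaphorins. SEMA4C held 21.7 to 25.5 CPM in Kelly and 86.9 to 99.3 CPM in LAN-1, a log2 difference of -1.90 ± 0.14, and SEMA5A differed by -2.40 ± 0.23. PLXNC1, the receptor of SEMA7A, held 7.19 to 10.3 CPM in Kelly and 34.5 to 43.5 CPM in LAN-1, a difference of -2.11 ± 0.21. These 3 genes did not overlap between the lines, and their adjusted p values by edgeR were at most 1.394e-16. SEMA5B had 4 counts in Kelly and 35 in LAN-1, a ratio of 0.113 with an interval from 0.0292 to 0.317. SEMA6B had 4 counts in Kelly and 28 in LAN-1, a ratio of 0.142 with an interval from 0.0361 to 0.405. SEMA5B and SEMA6B reached the level of the low-count filter only in LAN-1 groups. The other 4 were SEMA6C, SEMA4D, SEMA4F and PLXNA3, between -0.88 ± 0.26 and -0.48 ± 0.17. Calls for PLXNA3, PLXND1, SEMA4F, SEMA6C and SEMA7A were each lost in some fit without 1 library.

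Some other genes had GSK126 effects that missed the threshold. PLXNA3, a class A receptor, held 15.6 and 21.4 CPM with GSK126 and 37.4 and 27.4 CPM with DMSO in Kelly at day 5, without overlap, an effect of -0.78 ± 0.28 with an adjusted p of 0.0881 by edgeR. Its other Kelly libraries held 41.6 and 30.6 CPM with GSK126 and 19.8 and 31.5 CPM with DMSO at day 2. In LAN-1 PLXNA3 held 37.1 and 44.1 CPM with GSK126 and 39.7 and 34.5 CPM with DMSO at day 5, and 37.5 and 30.2 CPM against 55.7 and 32.6 CPM at day 2. LAN-1 treatments overlapped on both days. SEMA4F, a membrane semaphorin found in neurons, had an averaged effect of 0.50 ± 0.17 with an adjusted p of 0.0621. In Kelly it held 15.6 and 20.6 CPM with GSK126 and 14.9 and 12.2 CPM with DMSO at day 5, and 11.0 and 14.7 CPM against 5.39 and 6.80 CPM at day 2. In LAN-1 it held 18.2 and 18.7 CPM with GSK126 and 12.5 and 11.8 CPM with DMSO at day 5, and 13.1 and 19.3 CPM against 14.7 and 19.0 CPM at day 2. Only LAN-1 at day 2 had overlapping treatments.

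SEMA6B, a class 6 ligand, is given as values with no test of GSK126, because of all 16 libraries only the LAN-1 GSK126 libraries of day 5 reached the level of the low-count filter, 7.17 CPM. They held 11.9 and 16.5 CPM, against 6.96 and 2.52 CPM with DMSO. LAN-1 at day 2 held 6.53 and 4.64 CPM with GSK126 and 5.12 and 4.75 CPM with DMSO. Kelly had 8 counts with GSK126 and 2 with DMSO at day 5, a ratio of 4.72 with an interval from 0.942 to 45.6, and 3 and 2 counts at day 2.

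Secreted ligands gave no call with GSK126 on either day, with SEMA3A at 0.31 ± 0.21 in Kelly and -0.91 ± 0.63 in LAN-1 at day 5. SEMA3E stood at 0 counts in all 8 LAN-1 libraries, and SEMA3C had 1 count there, so GSK126 gave no level for these that this depth could detect. In Kelly SEMA3E, the ligand of PLXND1, held 15.3 and 16.6 CPM with GSK126 and 8.98 and 6.18 CPM with DMSO at day 2, an effect of 1.11 ± 0.39 with an adjusted p of 0.419 by edgeR. At day 5 it held 14.8 and 10.7 CPM with GSK126 and 16.4 and 10.3 CPM with DMSO. The treatments were apart at day 2 and overlapped at day 5.

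SEMA3A in Kelly held 52.5 and 41.3 CPM with GSK126 and 41.9 and 34.0 CPM with DMSO at day 5, and 31.2 and 37.7 CPM against 36.8 and 41.4 CPM at day 2. In LAN-1 it held 4.20 and 1.1 CPM with GSK126 and 4.88 and 6.72 CPM with DMSO at day 5, and 2.45 and 0.774 CPM against 1.92 and 2.72 CPM at day 2. These overlapped except in LAN-1 at day 5. SEMA3C, a secreted semaphorin that can act through either neuropilin, held 18.9 and 21.4 CPM with GSK126 and 22.4 and 13.4 CPM with DMSO in Kelly at day 5, and 11.6 and 8.30 CPM against 9.88 and 9.89 CPM at day 2. SEMA3F in Kelly held 47.5 and 51.2 CPM with GSK126 and 45.6 and 42.0 CPM with DMSO at day 5, and 26.3 and 36.4 CPM against 27.0 and 24.7 CPM at day 2. LAN-1 SEMA3F read 6.30 and 12.1 CPM with GSK126 and 4.18 and 6.72 CPM with DMSO at day 5, and 7.34 and 13.2 CPM against 8.32 and 8.83 CPM at day 2. Of the SEMA3C and SEMA3F groups, those of SEMA3F in Kelly at day 5 were apart and the others overlapped.

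SEMA3D and SEMA3G were scarcer ligands of the same secreted class. SEMA3D in Kelly held 20.5 and 15.3 CPM with GSK126 and 14.2 and 19.5 CPM with DMSO at day 5, and 12.9 and 14.0 CPM against 11.7 and 13.6 CPM at day 2. Its LAN-1 libraries held 3.50 and 3.31 CPM with GSK126 and 5.57 and 4.20 CPM with DMSO at day 5, and 4.90 and 2.32 CPM against 3.84 and 2.04 CPM at day 2. In LAN-1 at day 5 SEMA3D had 8 counts with GSK126 and 13 with DMSO, a ratio of 0.692 with an interval from 0.248 to 1.80. Those libraries did not overlap, and the treatments overlapped elsewhere. SEMA3G in Kelly held 6.56 and 8.40 CPM with GSK126 and 10.5 and 7.90 CPM with DMSO at day 5, and 11.6 and 12.1 CPM against 14.4 and 7.42 CPM at day 2. In LAN-1 SEMA3G held 1.40 and 4.41 CPM with GSK126 and 4.18 and 3.36 CPM with DMSO at day 5, and 2.45 and 3.87 CPM against 2.56 and 0.679 CPM at day 2. Treatments overlapped for SEMA3G in both lines on both days.

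Of the membrane-bound ligands, SEMA6C and SEMA6D, both of class 6, stood higher with GSK126 in Kelly at day 5 without being called. SEMA6C held 21.3 and 15.3 CPM with GSK126 and 12.7 and 8.51 CPM with DMSO, an effect of 0.80 ± 0.34 with an adjusted p of 0.199 by edgeR. Its day 2 libraries in Kelly held 11.6 and 13.4 CPM with GSK126 and 5.39 and 8.66 CPM with DMSO. In LAN-1 it held 18.2 and 16.5 CPM with GSK126 and 11.8 and 21.9 CPM with DMSO at day 5, and 12.2 and 16.2 CPM against 16.7 and 14.9 CPM at day 2. SEMA6C treatments were apart in Kelly and overlapped in LAN-1. SEMA6D held 37.7 and 32.1 CPM with GSK126 and 23.9 and 21.9 CPM with DMSO in Kelly at day 5, an effect of 0.61 ± 0.25 with an adjusted p of 0.159. Its Kelly libraries of day 2 held 24.5 and 25.5 CPM with GSK126 and 32.3 and 18.6 CPM with DMSO. In LAN-1 SEMA6D held 14.0 and 18.7 CPM with GSK126 and 12.5 and 14.3 CPM with DMSO at day 5, and 14.7 and 15.5 CPM against 11.5 and 8.83 CPM at day 2. Its treatments were apart in Kelly at day 5 and in LAN-1 at day 2.

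SEMA7A, the lipid-anchored ligand, held 19.0 and 23.0 CPM with GSK126 and 10.8 and 14.8 CPM with DMSO in Kelly at day 2, an effect of 0.67 ± 0.30 with an adjusted p of 0.574 by edgeR. At day 5 Kelly held 16.4 and 17.6 CPM with GSK126 and 18.7 and 17.0 CPM with DMSO. LAN-1 held 11.9 and 17.6 CPM with GSK126 and 13.9 and 11.8 CPM with DMSO at day 5, and 10.6 and 8.51 CPM against 9.61 and 7.47 CPM at day 2. Only Kelly at day 2 was without overlap. PLXNC1, its receptor, held 14.8 and 11.5 CPM with GSK126 and 7.47 and 10.3 CPM with DMSO in Kelly at day 5, and 8.57 and 13.4 CPM against 7.19 and 8.66 CPM at day 2. In LAN-1 PLXNC1 held 39.9 and 30.9 CPM with GSK126 and 34.8 and 34.5 CPM with DMSO at day 5, and 38.4 and 41.0 CPM against 43.5 and 36.0 CPM at day 2. PLXNC1 treatments were apart in Kelly at day 5 and overlapped elsewhere.

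SEMA4C and SEMA4D are class 4 ligands of class B plexins. SEMA4C in Kelly held 23.8 and 22.9 CPM with GSK126 and 21.7 and 25.5 CPM with DMSO at day 5, and 28.8 and 25.5 CPM against 25.2 and 24.1 CPM at day 2. In LAN-1 it held 91.6 and 69.4 CPM with GSK126 and 87.7 and 87.4 CPM with DMSO at day 5, and 79.97 and 83.5 CPM against 99.3 and 86.9 CPM at day 2. Its day 2 groups were apart in both lines, higher with GSK126 in Kelly and lower in LAN-1. SEMA4D in Kelly held 31.1 and 33.6 CPM with GSK126 and 29.1 and 28.6 CPM with DMSO at day 5, and 27.6 and 38.3 CPM against 29.6 and 27.8 CPM at day 2. LAN-1 SEMA4D read 59.5 and 52.9 CPM with GSK126 and 56.4 and 50.4 CPM with DMSO at day 5, and 48.1 and 44.9 CPM against 41.0 and 36.0 CPM at day 2. SEMA4D treatments were apart in Kelly at day 5 and in LAN-1 at day 2. GSK126 effects of SEMA3A, SEMA3C, SEMA3D, SEMA3F, SEMA3G, SEMA4C, SEMA4D and PLXNC1 had adjusted p values of 0.490 or more by edgeR in both lines on both days.

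The receptors PLXNB2 and PLXND1 stood higher with GSK126 in LAN-1 at day 5, again without a call. PLXNB2 held 169 and 198 CPM with GSK126 and 143 and 155 CPM with DMSO, an effect of 0.29 ± 0.12 with an adjusted p of 0.204 by edgeR. LAN-1 at day 2 held 142 and 168 CPM with GSK126 and 154 and 144 CPM with DMSO. Kelly PLXNB2 read 292 and 257 CPM with GSK126 and 295 and 282 CPM with DMSO at day 5, and 280 and 249 CPM against 249 and 291 CPM at day 2. Treatments overlapped for PLXNB2 other than in LAN-1 at day 5. PLXND1 held 67.2 and 92.6 CPM with GSK126 and 59.9 and 56.3 CPM with DMSO in LAN-1 at day 5, an effect of 0.41 ± 0.18 with an adjusted p of 0.211. LAN-1 at day 2 had 59.6 and 82.0 CPM with GSK126 and 67.2 and 72.0 CPM with DMSO. Kelly PLXND1 read 82.0 and 81.0 CPM with GSK126 and 86.7 and 91.8 CPM with DMSO at day 5, and 77.8 and 89.97 CPM against 53.9 and 84.1 CPM at day 2. In Kelly at day 5 the GSK126 libraries of PLXND1 were the lower ones, without overlap.

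PLXNB1, PLXNB3, SEMA4B and SEMA4G were called in no comparison. Group means over the 8 groups ran from 29.9 to 44.9 CPM for PLXNB1, from 17.8 to 28.3 CPM for SEMA4B, from 8.51 to 15.3 CPM for SEMA4G and from 2.94 to 6.21 CPM for PLXNB3. PLXNB1, a receptor for SEMA4D, came closest in the line difference, at -0.29 ± 0.15 with an adjusted p of 0.0863 by edgeR. SEMA4B had its smallest p in the same comparison, at -0.31 ± 0.19 with an adjusted p of 0.141. SEMA4G was nearest in Kelly at day 5, at 0.87 ± 0.37 with an adjusted p of 0.198, and PLXNB3 in LAN-1 at day 2, at 0.98 ± 0.63 with 0.845. None of these 4 was shown to be unchanged. The untested genes had 44 counts in all for SEMA3B, with 8 in its highest library, and 60 for SEMA4A, again with 8 at most.

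Some genes share exon bases with a neighbour, and the strand setting of the counting is not given in the sources used here, so reads on shared bases cannot be told apart. PLXNB3 shared 21.4% of its exon bases with SRPK3 on the same strand, and SEMA4G shared 18.4% with MRPL43 on the opposite strand. NRP1 shared 4.87% and SEMA5A 3.61% with a long noncoding RNA, and SEMA6A shared 2.87% with SEMA6A-AS1, which had 21 counts over all 16 libraries. PLXNA4, PLXNA2, PLXNA1 and SEMA5B shared none.

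Beyond the family, a list of 58 genes of semaphorin signalling was counted, of which 48 were tested. It holds other co-receptors, cytoplasmic adaptors, GTPases and their regulators. In Kelly at day 5, 3 were called higher and 1 lower, and in LAN-1 3 were called higher, while none was called at day 2, in DMSO over time or in a difference of effects. KDR, the VEGF receptor that can pair with NRP1, is among the 3 in Kelly, and it passed the low-count filter through the Kelly GSK126 libraries of day 5 alone. In Kelly the called share was 8.33% of the list, KDR included, against 4.9% of all genes, with a list median of 0.004. In LAN-1 the called share was 6.25% of the list, against 3.66% of all genes, with a list median of 0.08. L1CAM, an adhesion molecule that forms a complex with NRP1, was higher by 0.46 ± 0.12 in Kelly and by 0.75 ± 0.17 in LAN-1, with adjusted p values of 0.00541 and 0.00353 by edgeR. Averaged over lines and days L1CAM was 0.34 ± 0.07 higher, with an adjusted p of 6.976e-04, a call that held in every fit without 1 library. It was the gene of the list called in both lines.

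KDR held 14.8 and 7.64 CPM with GSK126 in Kelly at day 5, against 0 and 3.04 CPM with DMSO, and is given with no test because those GSK126 libraries alone brought it past the filter. RND3, a small GTP-binding protein that interacts with plexins, was 0.69 ± 0.21 lower in Kelly at day 5, with an adjusted p of 0.0346 by edgeR. In LAN-1 ARHGEF12, an exchange factor that binds class B plexins, was 0.39 ± 0.12 higher and FES, a kinase that acts downstream of plexin A, 1.85 ± 0.57 higher, with 0.0395 and 0.0452. FES rests on few reads, 14 and 9 counts with GSK126 and 3 and 4 with DMSO in LAN-1 at day 5. Of the LAN-1 groups only that GSK126 group reached the level of the low-count filter, as did all Kelly groups. Effects averaged over lines and days were called for 4 of the 48, 2 higher and 2 lower, against 6.47% of all genes. They were lower for RHOA by 0.17 ± 0.05 and for RAC1 by 0.16 ± 0.05, with adjusted p values of 0.0160 and 0.0476. The calls of RND3, ARHGEF12, FES, RHOA and RAC1, and those of L1CAM within each line, were each lost without some single library.

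Marker sums of cell state differed between treatments in Kelly at day 5, where PLXNA4, PLXNA2 and SEMA6A were higher with GSK126 than with DMSO. The summed level of 12 genes typical of mesenchymal neuroblastoma cells was 912 to 920 CPM with GSK126 and 422 to 447 CPM with DMSO at day 5, and 12 adrenergic genes summed to 5338 to 5562 CPM with GSK126 and 7684 to 7832 CPM with DMSO. In LAN-1 at day 5 the mesenchymal sum was 1600 to 1779 CPM with GSK126 and 1318 to 1478 CPM with DMSO, and the adrenergic sum was 2993 to 3396 CPM with GSK126 and 3097 to 3216 CPM with DMSO. The part of these states in the changes of PLXNA4, PLXNA2 and SEMA6A was not tested. Of the markers of other tissues, the 8 endothelial genes summed to 10.7 to 18.9 CPM with GSK126 and 2.24 to 4.25 CPM with DMSO in Kelly at day 5. KDR made up most of the GSK126 sum, with a mean of 11.2 CPM against 1.52 CPM with DMSO. PECAM1, TEK and FLT1 were at 0 with DMSO and averaged 0.41, 0.79 and 0.79 CPM with GSK126, under the level that a count of 0 allows. CLDN5 averaged 1.17 CPM with GSK126 and 0.608 CPM with DMSO, and VWF 0.41 and 1.12 CPM. CDH5 and ESAM were at 0 in both of those groups. The 8 blood cell genes summed to 107 to 128 CPM with GSK126 and 125 to 131 CPM with DMSO in Kelly at day 5, of which LCP1, an actin-binding protein, averaged 115 CPM with GSK126 and 124 CPM with DMSO. In LAN-1 at day 5 they summed to 4.41 to 9.09 CPM with GSK126 and 8.40 to 13.9 CPM with DMSO. PTPRC, which defines blood cells, was at 0 in every Kelly group and in 3 of the 4 LAN-1 groups. The 8 Schwann cell genes summed to 68.9 to 69.5 CPM with GSK126 and 52.9 to 55.3 CPM with DMSO in Kelly at day 5, with S100B at 0 in both groups, and no group of either line exceeded 5.74 CPM for the 8 epithelial genes.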

How the data were processed

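Whole-transcript RNA was sequenced from Kelly and LAN-1 cells in 16 libraries, 2 for each of 8 groups of line, treatment and day. The deposited values are raw counts per gene symbol, which the authors made with FastQC, TopHat2 and featureCounts on GRCh37 (hg19), per the submitters' processing notes. Tool versions, the annotation, the strand setting and the rule for multi-mapped reads are not given in the sources used here.

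A filter by filterByExpr (minimum count 10) left 11863 genes. Counts were scaled by TMM (factors 0.977 to 1.03) and fitted with a robust quasi-likelihood model in edgeR 4.0.16 under R 4.3.3, with 1 mean per group, 8 residual degrees of freedom and a common biological coefficient of variation of 5.31%. Each SE is the size of the log2 fold change divided by the square root of F. P-values were adjusted by Benjamini-Hochberg over all genes, and 0.05 was the threshold. The procedure was tested on simulated data. Duplicates differed by more than counting noise, with a chi-square per gene of 1.11 to 2.04, and each was kept as a replicate. Ratios of few counts have exact 95% intervals, which cover counting error only, as do floors.

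The family, the 58 signalling genes, the marker lists (adrenergic, mesenchymal, Schwann, endothelial, haematopoietic, epithelial) and the tests were chosen with earlier results of these data known. Family genes called in any comparison are given with their value in every library, those never called by their smallest p, and those untested by their counts. Some genes of the signalling and marker lists enter the counts and sums but are not reported here by name. Exon lengths, positions and overlaps are from GENCODE 44 lifted to GRCh37. Alternatives were RLE scaling, no filter, a minimum count of 20, DESeq2 1.42.0, the replicate number as a block, each line alone, and leaving out each library in turn.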

Additional observations from a re-analysis of the deposited data

Results flagged for a closer look

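In these results the GSK126 effect differed, by an interaction term in the edgeR model, between the 2 lines or between the 2 days, except that PLXNA4 is given untested. No cause was tested for any of them. Between the lines, as the Kelly minus the LAN-1 effect at day 5 on the log2 scale, the difference was -1.61 for NRP1, -0.64 for PLXNA1, -0.73 for PLXNA2 and -1.83 for SEMA5A, with adjusted p values of 1.262e-04, 0.00587, 0.0267 and 0.0442. The effect was thus lower in Kelly for these 4 genes, and NRP1 is the one whose call was kept in every fit without 1 library. Between the days, as the day 5 minus the day 2 effect, it was 1.78 for PLXNA4 in Kelly and 2.21 in LAN-1, given as values with no test because they hold the difference of PLXNA4 over time in DMSO, -1.10 in Kelly and -1.62 in LAN-1, which was known when the family was chosen. For PLXNA2 in LAN-1 it was 1.20, with an adjusted p of 9.04e-05. The DMSO day 5 libraries enter all of these values, and PLXNA4 and PLXNA2 were low in them in both lines. NRP1 and SEMA5A in LAN-1 were also lower with DMSO at day 5 than at day 2, without overlap and without a call.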

How the results depend on the processing

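Calls of family genes over all comparisons numbered 51. These counts, and the ranges below, include PLXNA4 at day 5, over time in DMSO and for the day difference in each line, and for the averaged effect. Such calls rest on DMSO values known when the family was chosen, so they are no support for that gene. Genes that passed the low-count filter mainly through 1 side of a comparison are counted as well. RLE scaling kept 51 of 51, no filter on low counts kept 50, a minimum count of 20 kept 47 of the 47 still tested, DESeq2 kept 39 of the 48 for which it gave an adjusted p, and fits of 1 line alone kept 16 of 16. Leaving out each library in turn, 14 of the 26 calls for GSK126, days and their differences held in every fit, and 20 of the 25 calls between the lines did. DESeq2 called 1 family gene where edgeR called 4 for the line difference of the day 5 effect, and 1 where edgeR called 2 for the day difference in LAN-1. Without single libraries the count of family genes at day 5 was 2 to 3 in Kelly and 4 to 7 in LAN-1. It was 1 to 4 for the line difference, 1 to 3 for the LAN-1 day difference, 1 to 2 for that of Kelly, and 1 to 2 for time in DMSO in each line. The effect near 0 for NRP1 in Kelly at day 5 was -0.021 with no filter and ran from -0.089 to 0.12 without single libraries. For PLXNA4 in LAN-1 at day 2 that range was -0.18 to 0.66, and the line difference ranged from -0.64 to 0.067 for PLXNA4 and from -0.27 to 0.039 for SEMA6A; the cause was not tested. Over all genes, edgeR and DESeq2 called 21 and 3 in Kelly and 18 and 2 in LAN-1 at day 2, 581 and 163 in Kelly and 434 and 154 in LAN-1 at day 5, 768 and 289 for the averaged effect, 220 and 73 for the line difference, 45 and 15 in Kelly and 64 and 28 in LAN-1 for the day difference, and 52 and 15 in Kelly and 52 and 22 in LAN-1 for time in DMSO. Without single libraries the edgeR counts over all genes were 2 to 25 in Kelly and 3 to 26 in LAN-1 at day 2, 117 to 479 for the line difference, 22 to 56 in Kelly and 24 to 223 in LAN-1 for the day difference, 10 to 84 in Kelly and 21 to 67 in LAN-1 for time in DMSO, and 577 to 960 for the averaged effect. Replicate numbers did not pair the samples: same-numbered libraries had 12 correlations of their deviations between -0.0876 and 0.0671, 5 of them above 0. With the replicate number as a block 49 of the 51 calls held, and SEMA5A for the line difference (adjusted p 0.0530) and SEMA7A between the lines (0.0541) did not. At 2 libraries per group and at most 1666190 counts each, the scarcer genes, such as SEMA5B and SEMA6B, are limited by depth.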
